A study of Rattus norvegicus with 4 samples.

Results

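In PCCl3 rat thyroid cells that expressed Engr-HD, an antagonist of the transcription factor TTF1, 231 of 38948 array probes, or 0.593%, read far lower than in cells of the same line that did not express it. These 231 probes were chosen by their own Engr-HD values. Each array was centred on its median over all probes that are not controls, and a probe was taken if its log2 ratio was at most -1.2 on both Engr-HD arrays. Their Engr-HD ratios are therefore given as a description, with no test, and what could be tested is how the same probes read with the control protein Engr-HDm. No gene symbol is paired with these probe IDs in the files or the reference used here. The transcripts are therefore described by probe ID.

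TTF1, also called Nkx2-1, is a transcription factor of the homeodomain class that works in thyroid, lung and forebrain. In thyroid follicular cells it acts together with the paired-domain factor Pax8 on the promoters of genes for hormone synthesis, among them thyroglobulin, the protein scaffold of thyroid hormone, and thyroid peroxidase, the enzyme that iodinates it. Transcripts that need such a factor are candidates for a fall when it is antagonised, as are transcripts further down from its direct targets. The arrays do not separate the 2 kinds.

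PCCl3 is an established line of rat thyroid follicular cells. All cells were selected as clones that carry tTA, a transactivator that doxycycline switches off, and a responsive construct for either Engr-HD or Engr-HDm, and both selections, with Geneticin and hygromycin, were made in all groups. Without gene names the thyroid identity of the cells could not be checked against markers. In each construct's line, cells taken off the drug, which then express the protein, were compared with cells kept on it for a further 10 days. The time off the drug was taken as 10 days on all 4 arrays. The protein and the absence of doxycycline thus go together in every ratio. For the RNA itself, the labels give a week off the drug, so the exact time is not settled. How many clones were pooled or used is not stated in the labels. Each construct had 2 two-channel arrays of 70-base probes with the dyes swapped. Expressing cells carried Cy5 on array 1 and Cy3 on array 2. No label says whether the 2 arrays used separate cultures, so the spread between them may be technical.

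Each array gave 1 log ratio per probe, read here as log2. Its direction, expressing over non-expressing cells, is the likely one from the order in the sample titles, but no source states it. Were it the other way, all 231 probes would be high with Engr-HD instead of low. Over all probes the Engr-HD arrays had SDs of 0.393 and 0.402 and the Engr-HDm arrays 0.146 and 0.178, so the ratios of the 2 constructs do not have the same width. A smaller amount of a transcript per cell and fewer cells that hold it cannot be told apart in such bulk RNA. Spot brightness is not among the values used here, and whether dim or bright spots read differently was not tested.

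The 231 probes covered a wide range of depths with Engr-HD. Their means over the 2 Engr-HD arrays ran from -4.06 to -1.21 on the log2 scale, with a median of -1.58, which correspond to 16.6-fold, 2.31-fold and 2.99-fold lower. On array 1 the lowest, median and highest ratios were -3.28, -1.56 and -1.202, and on array 2 they were -4.83, -1.58 and -1.2. A mean of at most -2, or 4-fold lower, was read at 36 of the 231 probes. Another 93 lay between -2 and -1.5, and 102 lay above -1.5. Only 3 probes were below -3. The edge was well filled on both sides. There were 55 members whose higher Engr-HD ratio lay within 0.1 below the limit, and 75 other probes whose higher ratio lay within 0.1 above it. Just inside were Rn30018143, with -1.25 on array 1 and -1.2 on array 2, ENSRNOG00000019321, with -1.202 and -1.23, and Rn30015422, with -1.202 and -1.22, the last 2 being among 3 probes tied at -1.202. Just outside were ENSRNOG00000018804, with -1.40 and -1.198, Rn30011815, with -1.22 and -1.198, and Rn30012661, with -1.44 and -1.196. The limit thus cuts through a continuous tail and marks no gap in the ratios. In the opposite direction, 416 probes or 1.07% of all reached 1.2 on both Engr-HD arrays.

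**Figure D1:**
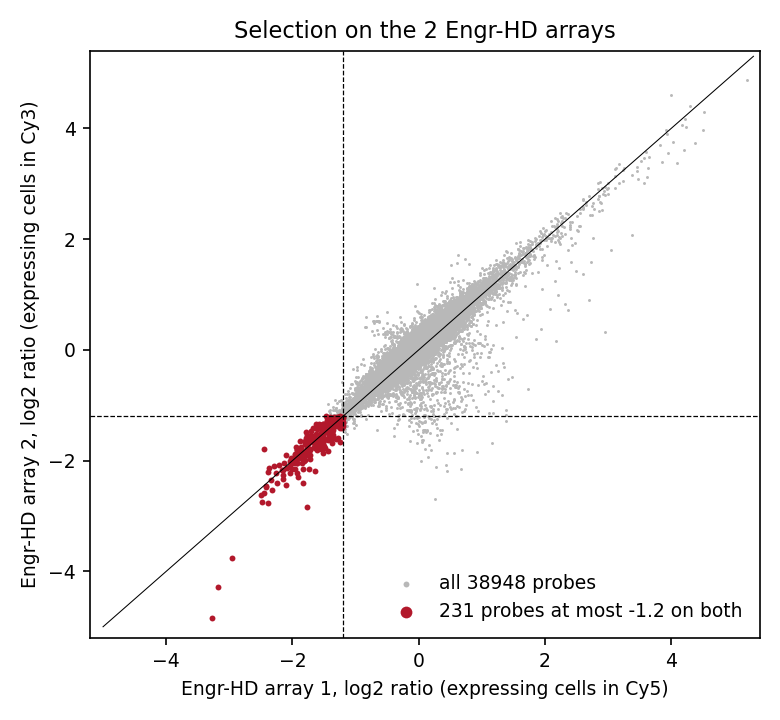
Log2 ratio of every probe on Engr-HD array 1 (horizontal) and array 2 (vertical), with the 231 chosen probes in red, dashed lines at the limit of -1.2 and a solid line where both arrays are equal. The red points follow the diagonal, and 3 of them stand apart below -3 on average.

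The lowest 3 probes stood apart from the rest and were among the 4 with the widest difference between the Engr-HD arrays. Probe Rn30005481 read -3.28 on Engr-HD array 1 and -4.83 on array 2, against 0.39 on Engr-HDm array 1 and -1.57 on array 2. Rn30005480, the probe with the number just before it, read -3.18 and -4.28 with Engr-HD and 0.81 and -0.96 with Engr-HDm. The third, ENSRNOG00000006104, carries an Ensembl rat gene ID and read -2.96 and -3.77 with Engr-HD against 0.35 and -0.76 with Engr-HDm. In all 3 the ratio was lower where the expressing cells carried Cy3, in both constructs. Their Engr-HD ratios lay below their Engr-HDm ratios on every array, as at all 231 probes, which were chosen to be low with Engr-HD. Their Engr-HD means were -4.06 ± 1.10, -3.73 ± 0.77 and -3.36 ± 0.57 (SD, n = 2 arrays each).

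The next 7 lowest probes agreed more closely between the dye orientations. ENSRNOG00000004725 read -2.48 and -2.74 with Engr-HD and -0.005 and 0.11 with Engr-HDm. Rn30020560 read -2.39 and -2.77 with Engr-HD and 0.06 and -0.07 with Engr-HDm. Both thus stood about 6-fold lower with the antagonist (6.11-fold and 5.99-fold by their means) and within 0.11 of 0 on each array of the control protein. Rn30017864 read -2.498 and -2.63 with Engr-HD against 0.17 and 0.30 with Engr-HDm. Rn30001602 read -2.43 and -2.48 against 0.34 and 0.47. ENSRNOG00000019412 read -2.41 and -2.45 against 0.23 and 0.24. These 3 were low on both Engr-HD arrays and slightly above 0 on both Engr-HDm arrays. R000719_01 read -2.33 and -2.54 with Engr-HD and -0.008 and 0.09 with Engr-HDm. ENSRNOG00000016678 was the member of this group that was below 0 on all 4 arrays, with -2.45 and -2.59 against -0.19 and -0.14. The means of these 7 probes with Engr-HD lay between -2.61 and -2.43, and their SDs between 0.03 and 0.27 (n = 2 arrays each).

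**Figure D2:**
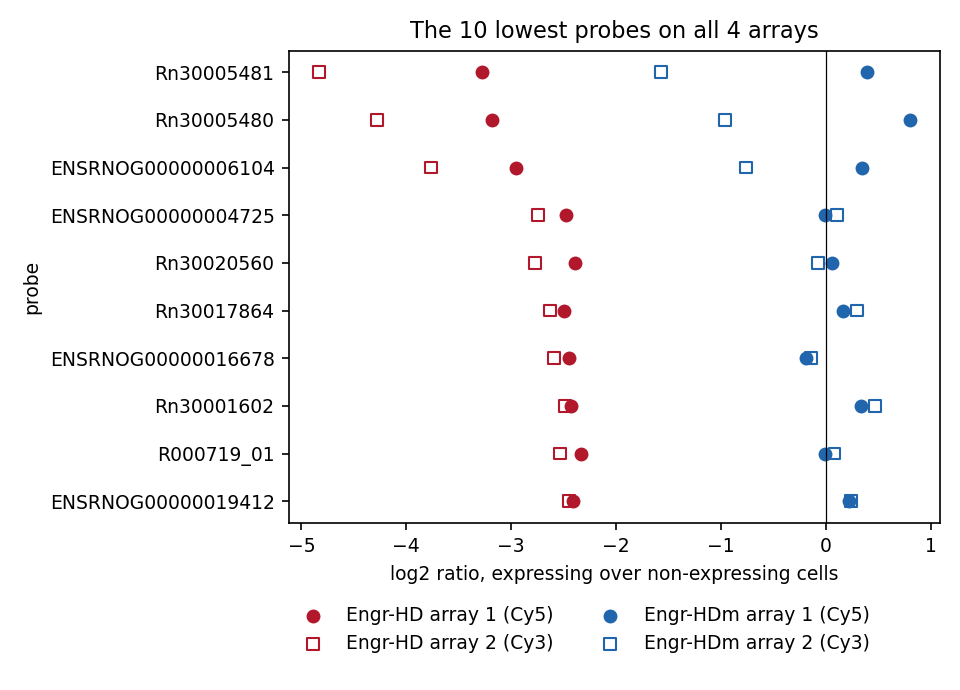
Log2 ratios of the 10 probes with the lowest Engr-HD mean (rows) on the Engr-HD arrays (red) and the Engr-HDm arrays (blue), with filled circles for array 1 and open squares for array 2. The first 3 rows show array 2 far to the left of array 1 in both constructs, while in the other 7 both arrays of a construct lie close together.

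A dye swap exchanges the label between the compared cells, so a ratio that follows the cells keeps its value on both arrays, and one that follows the dye moves apart. The rule limits how far the Engr-HD arrays can disagree, and a probe at -1.2 on one array and near 0 on the other was never taken. Within that limit, the 2 Engr-HD arrays differed by at most 0.2 at 194 of the 231 probes, or 84%, against 87.9% of all probes. They differed by over 0.5 at 7 probes, or 3.03%, against 1.78% of all. The median size of the difference was 0.106, against 0.061 over all probes. Array 2 was the lower at 127 of the 231, or 55%, against 42.9% of all probes. The closest match was at Rn30013324, with -1.23 on both arrays, followed by Rn30024342, with -1.77 on both. R000869_01, with -1.25 on both, was 1 of 5 probes that tied for the next place with a difference of 0.002. On the Engr-HDm arrays these 3 read -0.32 and -0.27, -0.13 and -0.26, and 0.10 and 0.22. The widest differences were at Rn30005481, Rn30005480 and ENSRNOG00000008794. The last of these read -1.77 and -2.83 with Engr-HD and 0.33 and -1.17 with Engr-HDm.

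The rule did not use the Engr-HDm arrays, but their difference goes with that of the Engr-HD arrays, which the rule limits. The median size of the difference between the 2 Engr-HDm arrays over the 231 probes was 0.104, against 0.066 over all probes. The difference exceeded 0.5 at 10 of the 231, or 4.33%, against 2.65% of all probes. In 9 of these 10, array 1 read above array 2, and in all 10 the Engr-HD arrays differed in the same direction. The exception to the first pattern was Rn30005680, at -0.34 and 0.31 with Engr-HDm and at -2.46 and -1.79 with Engr-HD. The like shares over all probes this far apart were not counted. Over the whole 231, array 1 minus array 2 had the same sign in both constructs at 143, or 61.9%, against 68.3% of all probes. Across the 231 probes, array 1 minus array 2 with Engr-HD correlated with the same difference with Engr-HDm at r = 0.777 (Spearman's rho = 0.525), against 0.849 (rho = 0.598) across all probes. Without the 4 probes with the widest Engr-HD differences, r was 0.557. These are descriptions across probes, which share arrays, dyes and hybridizations. Taking the Engr-HDm arrays' own difference off the Engr-HD ratios before applying the same limit found 233 probes, of which 218 were among the 231.

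**Figure D3:**
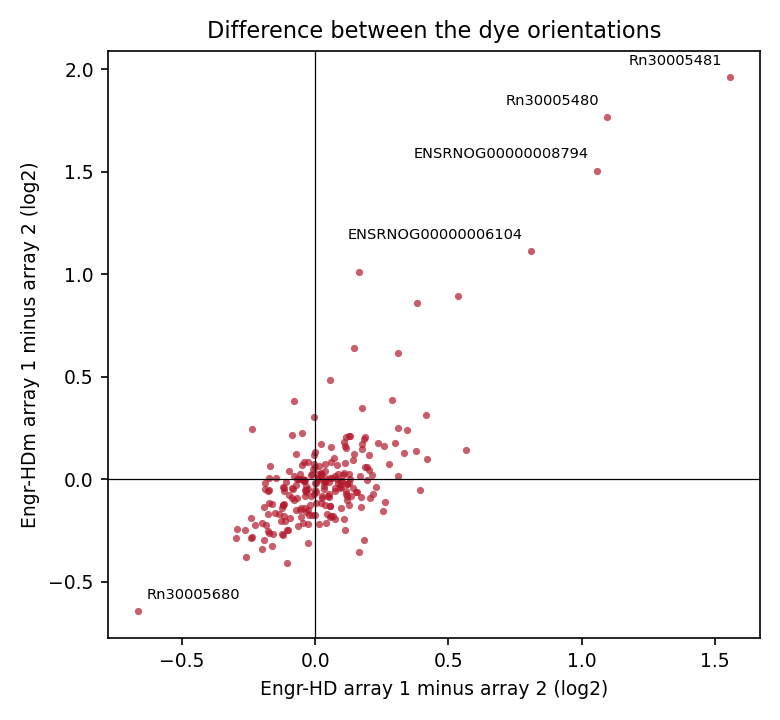
Array 1 minus array 2 on the log2 scale with Engr-HD (horizontal) and with Engr-HDm (vertical) for the 231 probes, 1 point each, with the 5 widest Engr-HD differences named. Most points lie near 0, while 4 named probes lie far up on the right and Rn30005680 far down on the left.

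With the control protein, the ratios of the 231 probes lay on both sides of 0. Their median Engr-HDm mean was -0.0145, against -0.001 over all probes, and single probes ran from -0.71 to 0.57. By limma over all 38948 probes, 0 of the 231 were lower and 0 higher at an adjusted p below 0.05 (0% of all probes in each direction), and the smallest adjusted p, over the whole table, was 0.0722. At an unadjusted p below 0.05, 64 of the 231, or 27.7%, were lower, against 7.15% of all probes, and 67, or 29%, were higher, against 6.82%. Both Engr-HD arrays that chose the probes also enter the spread of this fit, and with the Engr-HDm arrays alone the smallest adjusted p by limma was 0.345. A fit that took the dye orientation, given by the array number, as a replicate block made other calls. In it 72 of the 231 probes, or 31.2%, were lower with Engr-HDm by limma's adjusted p, against 6.6% of all probes. A further 62, or 26.8%, were higher, against 6.72% of all. Among the 416 probes that were as high with Engr-HD as these were low, the blocked fit called 49 lower, or 11.8%, and 43 higher, or 10.3%. The blocked fit has 1 residual degree of freedom, and its spread draws on the Engr-HD arrays too. Of the fits run at this threshold, only the blocked one called any of the 231 with Engr-HDm.

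**Figure D4:**
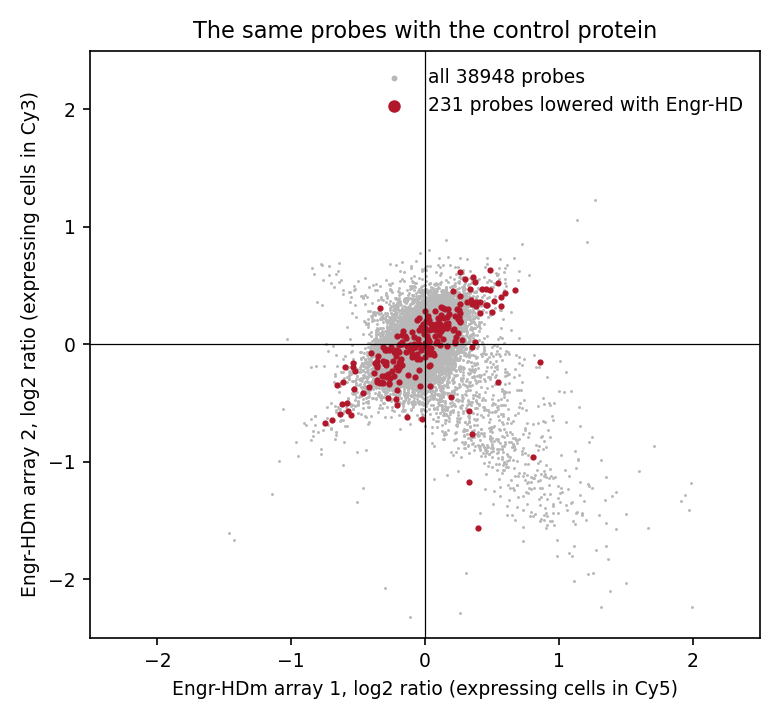
Log2 ratio on Engr-HDm array 1 (horizontal) and array 2 (vertical) for all probes (grey) and the 231 probes that were low with Engr-HD (red). Most red points run along the rising diagonal on both sides of 0, and a few lie at lower right, where array 1 is above 0 and array 2 below.

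The 231 probes were spread more widely with Engr-HDm than the table as a whole, to both sides. The SD of the Engr-HDm mean over probes was 0.258, against 0.109 over all probes and 0.149 over the 416 high probes. A mean within 0.1 of 0 was read at 66 of the 231, or 28.6%, against 77% of all probes. Both Engr-HDm arrays were below 0 at 94 of the 231, or 40.7%, against 26.7% of all probes, and both above 0 at 92, or 39.8%, against 26.5%. Together 186, or 80.5%, kept their side of 0 across the dye swap, against 53.2% of all probes and 61.8% of the 416 high ones. The 2 Engr-HDm arrays correlated at r = 0.517 (Spearman's rho = 0.693) across the 231 probes and at r = -0.11 (rho = 0.195) across all. Without the 4 widest Engr-HD differences, r was 0.739. A mean of at most -0.3 with both arrays below 0 was read at 28 of the 231, or 12.1%, against 1.17% of all probes. A mean of at least 0.3 with both above 0 was likewise read at 28, against 0.881% of all. The 163 probes that lay just outside the limit, by up to 0.2, gave similar values, with an SD of 0.215 and 128, or 78.5%, on the same side of 0. The rule limits the difference between the Engr-HD arrays, which goes with that between the Engr-HDm arrays. The Engr-HDm arrays still differed by over 0.5 at 4.33% of the 231 probes. The shares were 2.65% of all probes and 0.721% of the 416 high ones. Whether the rule bears on the shares on the same side of 0 was not tested. No test was made of these differences in width, and the part of spot brightness in them was not tested.

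**Figure D5:**
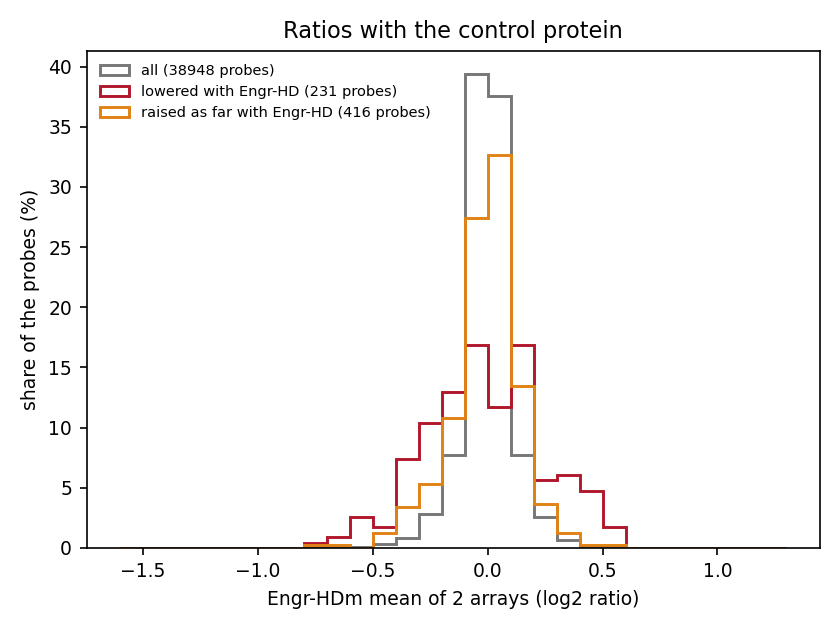
Share of probes (percent, vertical) in steps of 0.1 of the Engr-HDm mean (log2 ratio of 2 arrays, horizontal) for all probes, the 231 probes low with Engr-HD and the 416 probes as high with it. The red outline is lower at the centre and wider on both sides, with SDs of 0.258, 0.109 and 0.149 for the low, all and high probes.

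The probes at the low end with Engr-HDm were low with both proteins. R003375_01 read -0.75 and -0.67 with Engr-HDm and -1.92 and -1.97 with Engr-HD. Its Engr-HDm mean of -0.71 ± 0.06 (SD, n = 2 arrays) had a limma adjusted p of 0.0722, and 0.00617 with the replicate block. Rn30000398 read -0.70 and -0.65 with Engr-HDm and -1.43 and -1.83 with Engr-HD. ENSRNOG00000006019 read -0.63 and -0.59 with Engr-HDm and -1.87 and -1.75 with Engr-HD. The 2 had limma adjusted p-values of 0.13 and 0.0779, and 0.0155 and 0.00608 with the replicate block. At all 3, every Engr-HD ratio lay below every Engr-HDm ratio, as at all 231 probes, which were chosen to be low with Engr-HD. An Engr-HDm mean that was at least 0.25 of the Engr-HD mean and of the same sign was read at 14 of the 231 probes, or 6.06%. The like share over all probes was not counted.

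At the other end, some probes that were low with the antagonist read above 0 with the control protein. ENSRNOG00000012404 read 0.67 and 0.46 with Engr-HDm and -1.93 and -2.04 with Engr-HD. Rn30011964 read 0.49 and 0.63 with Engr-HDm and -1.604 and -1.56 with Engr-HD. Rn30021133 read 0.55 and 0.52 with Engr-HDm and -1.21 and -1.34 with Engr-HD. Their Engr-HDm means of 0.57 ± 0.15, 0.56 ± 0.10 and 0.54 ± 0.02 (SD, n = 2 arrays each) had limma adjusted p-values of 0.112, 0.0925 and 0.0925. With the replicate block these were 0.00691, 0.00735 and 0.00762. An Engr-HDm mean of the opposite sign and at least 0.25 of the Engr-HD mean in size was read at 14 of the 231 probes, or 6.06%. The like share over all probes was not counted for either sign, so nothing is read from these counts.

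The Engr-HDm ratios were also set beside the depth with Engr-HD. Across the 231 probes, whose range of Engr-HD means the rule cuts short, the 2 means correlated at r = 0.00817 (Spearman's rho = -0.0578), and at r = -0.102 without the 4 widest Engr-HD differences. Across all probes r was 0.194 (rho = 0.261). The 36 probes at or below -2 had a median Engr-HDm mean of 0.02, the 93 between -2 and -1.5 one of 0.001, and the 102 above -1.5 one of -0.05. The 2 Engr-HDm arrays were on the same side of 0 at 21 of the 36 lowest probes, or 58.3%, at 77 of the 93, or 82.8%, and at 88 of the 102, or 86.3%. The median size of the difference between the Engr-HDm arrays was 0.168, 0.094 and 0.085 in the same order, and that between the Engr-HD arrays was 0.19, 0.116 and 0.068. The rule lets the Engr-HD arrays lie further apart at a lower mean, and the array differences of the 2 constructs go together, so nothing is read from this order. Engr-HD minus Engr-HDm ran from -3.65 to -0.86 over the 231 probes, with a median of -1.53, and is not tested because the Engr-HD part was chosen to be low.

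The 231 probes came from all 3 kinds of ID on the array. Ensembl gene IDs made up 98 of them, which is 0.818% of the 11986 such probes. Operon numbers beginning Rn3 made up 105, or 0.428% of 24549, and those beginning R0 made up 28, or 1.16% of 2413. Among the 416 high probes the shares ran in the same order, with 1.62%, 0.692% and 2.15%. The median Engr-HD mean was -1.57, -1.62 and -1.49 in the 3 kinds, and the median Engr-HDm mean was -0.06, 0.03 and -0.06. The Engr-HD medians are of ratios that the rule cuts off at -1.2, so nothing is read from how close they lie. Several probes can belong to 1 gene, so 231 is a count of probes.

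Among the 133 members with Operon numbers, 12 formed 6 pairs with directly consecutive numbers. Whether the 2 probes of a pair belong to 1 transcript is not given in the files. The pair Rn30005480 and Rn30005481 holds the 2 lowest probes with Engr-HD. Rn30010312 and Rn30010313 read -1.96 and -1.89, and -2.04 and -2.09, with Engr-HD. With Engr-HDm the first read 0.15 and 0.30 and the second 0.16 and 0.17. R002162_01 and R002163_01 read -1.96 and -1.90, and -1.98 and -2.04, with Engr-HD, and with the control protein -0.53 and -0.38, and -0.18 and 0.002. Both pairs were thus nearly level with Engr-HD, and the second was apart with Engr-HDm.

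The other 3 pairs were less deep or less alike. Rn30009422 read -2.26 and -2.23 with Engr-HD, while its neighbour Rn30009423 read -1.59 and -1.57. With Engr-HDm they read 0.36 and 0.58, and 0.02 and 0.19. Rn30017078 read -1.63 and -1.34 with Engr-HD and Rn30017079 read -1.36 and -1.44, and both were below 0 with Engr-HDm, at -0.29 and -0.05, and at -0.27 and -0.34. Rn30018142 and Rn30018143 were near the limit, with -1.32 and -1.29, and -1.25 and -1.2, and within 0.08 of 0 on the Engr-HDm arrays. Most neighbours by number did not share the low ratio. Of 204 Operon probes numbered directly beside a member and not members themselves, 13, or 6.37%, were at least 1.5-fold lower on both Engr-HD arrays, against 2.5% of all 26829 Operon probes outside the 231. In the other direction, 5 of the 204, or 2.45%, were at least 1.5-fold higher, against 3.52%. The median Engr-HD mean of the 204 neighbours was -0.02.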

How the data were processed

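The authors deposited 1 log2 ratio per probe and array for 2 Engr-HD and 2 Engr-HDm arrays, per the labels with dyes swapped between the arrays of a construct. The log base is read from the values. Scanner software, background correction and normalization are not given in the sources used here. Column medians lay within 0.003 of 0 as deposited. Of 38960 rows, 12 controls were left out. Each array was centred on its median over the other 38948, against 34717 probes stated in the series' design. The reference gene table matched 0 probe IDs, so the marker lists could not be applied and no sequence is shown.

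The 231 members, the lists and the rules for named probes were chosen with earlier results of these data known. Named are the 10 lowest members, the 3 with the widest and the 3 with the narrowest Engr-HD array difference, the 3 lowest and 3 highest with Engr-HDm, the 3 nearest the limit on each side, and consecutive Operon numbers. Rn30005680 was named after its values were seen. Engr-HDm against 0 was tested with limma 3.58.1 in R 4.3.3 (lmFit, eBayes, two-sided, Benjamini-Hochberg over all probes), with all 4 arrays in 1 fit that estimated each construct and left 2 residual degrees of freedom. Arrays with the same number share the dye orientation, per the labels, and their deviations from the construct mean correlated at r = 0.849 over probes, so a fit with the number as a replicate block was made too. Other settings were scaling, centring, robust variance, Engr-HDm arrays alone, each array left out and a threshold of 0.1. The number of arrays limits the precision.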

Additional observations from a re-analysis of the deposited data

Results flagged for a closer look

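At 92 of the 231 probes both Engr-HD arrays were below 0 and both Engr-HDm arrays above 0, so the constructs read on opposite sides of 0 on every array. About as many, 94, were below 0 on both Engr-HDm arrays too, against 26.7% of all probes. The difference between the constructs was not tested, since the Engr-HD side was chosen to be low, and 26.5% of all probes were above 0 on both Engr-HDm arrays. Among the members named above, opposite sides of 0 on every array were read at 12, some with Engr-HDm ratios close to 0. Their Engr-HDm means were 0.57 at ENSRNOG00000012404, 0.56 at Rn30011964, 0.54 at Rn30021133, 0.47 at Rn30009422 and 0.40 at Rn30001602. They were 0.23 at Rn30017864, 0.23 at ENSRNOG00000019412, 0.22 at Rn30010312, 0.17 at Rn30010313, 0.16 at R000869_01, 0.11 at Rn30009423 and 0.0445 at Rn30018143. Groups of 2 arrays are too small to look for an array far from the others.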

How the results depend on the processing

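The number of probes found by the rule was 394 with a limit of -1 and 118 with -1.5. It was 125 once all arrays had an equal median absolute deviation and 103 under quantile normalization, both of which shrink the wider Engr-HD ratios by construction. It was 278 to 339 with 1 Engr-HD array alone, 274 by the mean of both, and 233 without centring. With the replicate block, limma called 72 of the 231 probes lower with Engr-HDm and 62 higher, and 2571 and 2619 of all probes. A threshold of 0.1 gave 7 and 7 of the 231, and 95 and 57 of all. An equal median absolute deviation gave 2 lower probes in all, none of the 231. The Engr-HDm arrays alone, quantile normalization, no centring and robust variance gave 0. Leaving out an Engr-HD array repeats the fit of the Engr-HDm arrays alone, since the spread then comes from those arrays only. The cause of these changes was not tested. The median Engr-HDm mean of the 231 stayed between -0.031 and -0.002. It was -0.025 for the 394 probes found with a limit of -1 and 0.038 for the 118 found with -1.5. All moved by less than 0.0735, the median SD between the Engr-HDm arrays. The median size of the Engr-HDm array difference was 0.222 under quantile normalization, an alternative chosen after seeing the data. Between 184 and 187 probes were on the same side of 0 on both Engr-HDm arrays under the scalings and without the 4 widest Engr-HD differences.

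Of 350 values of the named probes with Engr-HDm under these settings, 316 kept their sign and stayed short of the threshold, 23 came to pass it, and 11 changed sign. All 23 came from the fit with the replicate block, which has 1 residual degree of freedom. Most of these values could not change sign. The block, robust variance, the Engr-HDm arrays alone and leaving out an Engr-HD array cannot alter an Engr-HDm mean. The last 2 of these are also the same fit. No centring left these means as they were. Under quantile normalization Rn30005480 read 0.13 and Rn30020560 0.00175. Leaving out either Engr-HDm array gave a range across 0 at 9 probes. It ran from -1.57 to 0.39 at Rn30005481, from -0.96 to 0.81 at Rn30005480, from -0.76 to 0.35 at ENSRNOG00000006104, from -1.17 to 0.33 at ENSRNOG00000008794 and from -0.18 to 0.002 at R002163_01. It ran from -0.074 to 0.062 at Rn30020560, from -0.035 to 0.029 at Rn30015422, from -0.005 to 0.11 at ENSRNOG00000004725 and from -0.008 to 0.085 at R000719_01. Of 175 Engr-HD means, 109 moved by no more than the SD between arrays and 66 moved by more. Leaving out 1 of 2 arrays cannot move a mean by more than that SD. Those settings are therefore among the 109 by construction, and all 66 came from the scalings and from no centring. The sign changed at 0, which the choice of probes near or below -1.2 all but fixed in advance.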
